A study of Mus musculus with 12 samples.

Results

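The solute carriers are the genes whose symbols begin with Slc and a number, most of which encode membrane proteins that move nutrients, ions or neurotransmitters across the cell surface or an organelle membrane. Of the 4859 coding genes listed with expression values in the developing mouse cerebral cortex, 92 matched this symbol pattern, 89 were kept as members and 3 were not analysed here. The rule for the 89 used gene names and no threshold on expression, but the list they come from holds genes reported as differential in these same samples. They were sorted into 17 groups by substrate, of which 15 members carry amino acids, 7 are mitochondrial, 7 carry glucose or other sugars, 6 carry glutamate, 6 carry zinc or related metals and 3 carry chloride with cations. Slc9a3r1 and Slc9a3r2 fit the symbol pattern but encode scaffold proteins of sodium-proton exchangers, and they were kept as a group of their own.

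Carriers divide the work of a neural tissue. Vesicular glutamate transporters load synaptic vesicles, plasma membrane glutamate transporters clear the transmitter, and the balance of chloride importers and extruders sets whether GABA depolarises a young neuron. Glucose and monocarboxylate carriers supply fuel, sodium-calcium exchangers extrude calcium, and mitochondrial carriers exchange metabolites across the inner membrane.

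The study sorted cells of the embryonic cerebral cortex of the Tg(Ebf2-EGFP)FB58Gsat strain by EGFP, which in this line is driven by an Ebf2 transgene, at E11.5, at E13.5 and finally E15.5, counted in embryonic days. Ebf2-EGFP+ cells are preplate neurons that come to be mainly Cajal-Retzius (CR) neurons, the reelin-secreting cells of the marginal zone, and Ebf2-EGFP- cells are the remaining cortical cells. There were 12 libraries in 6 groups of 2, each from pooled embryos, all carrying the transgene and with no other treatment. EGFP marks the cells in which the transgene is on, so neither population is a single cell type.

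The marker genes of the labelled population were strongly expressed in it. The summed FPKM (fragments per kilobase of transcript, scaled to the mapped fragments of the library) of the 7 CR markers listed, of 8 chosen, ranged from 172 to 1157 over the Ebf2-EGFP+ libraries and from 5.24 to 18.3 over the Ebf2-EGFP- libraries. Other markers also moved with the sort. The 7 radial glia markers summed to between 86.3 and 430 FPKM in Ebf2-EGFP+ and between 439 and 1610 FPKM in Ebf2-EGFP- libraries. The 5 cell cycle genes fell from between 161 and 177 FPKM at E11.5 to between 8.87 and 10.5 at E15.5 in the labelled cells, and from between 474 and 543 to between 53.2 and 98.8 in Ebf2-EGFP- cells. Over the same interval the summed level of the 6 cortical plate markers went from between 187 and 240 FPKM to between 693 and 1024 FPKM in Ebf2-EGFP+ cells, and from between 46.2 and 49.5 FPKM to between 739 and 884 FPKM in Ebf2-EGFP- cells. At E13.5 it was 896 to 901 against 451 to 563 FPKM. The 3 intermediate progenitor markers summed to 211 to 224 against 47.4 to 53.0 FPKM at E11.5, and to 19.1 to 34.7 against 135 to 234 FPKM at E15.5. The 7 markers of the ganglionic eminence and interneurons summed to between 3.30 and 14 FPKM in Ebf2-EGFP+ and between 62.8 and 223 FPKM in Ebf2-EGFP- libraries. The 5 endothelial or pericyte markers listed, of 8 chosen, summed to between 1.16 and 4.92 FPKM in Ebf2-EGFP+ and between 5.86 and 15.1 FPKM in Ebf2-EGFP- libraries, and the 6 meningeal markers were highest at E11.5, with 41.9 to 47.2 and 110 to 129 FPKM. Of the 6 microglia or macrophage markers chosen, only Aif1 was listed. It was higher in Ebf2-EGFP+ libraries at each stage, with 2.87 to 2.92 against 0.626 to 0.773 FPKM at E15.5. Of the 6 erythroid markers chosen, only Alas2 was listed. It was lower in Ebf2-EGFP+ libraries at each stage, with 0.300 to 0.436 against 5.63 to 23.0 FPKM at E15.5. None of these markers was listed at 0 in both libraries of a group. The part of the cell makeup in the differences below was not tested, and in sorted pools fewer cells of a type cannot be told apart from less RNA per cell.

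Promoter sequences are shown for the 3 members whose levels differed most between the populations at E11.5. These are Slc17a6 and Slc17a7, which encode the vesicular glutamate transporters VGLUT2 and VGLUT1, and Slc1a3, which encodes the glial glutamate transporter GLAST. Each sequence is the 250 bases before the transcription start furthest 5′ in RefSeq (GRCm38.p6), at chr7:51621580-51621829 on the plus strand, chr7:45163671-45163920 on the plus strand and chr15:8710808-8711057 on the minus strand. CpG dinucleotides, the usual sites of DNA methylation, are in capitals.
Slc17a6: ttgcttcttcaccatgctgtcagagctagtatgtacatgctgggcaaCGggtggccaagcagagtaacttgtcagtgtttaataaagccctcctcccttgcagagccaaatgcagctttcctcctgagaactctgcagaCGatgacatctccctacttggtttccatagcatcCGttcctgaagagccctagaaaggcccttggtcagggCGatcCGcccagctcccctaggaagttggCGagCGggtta
Slc17a7: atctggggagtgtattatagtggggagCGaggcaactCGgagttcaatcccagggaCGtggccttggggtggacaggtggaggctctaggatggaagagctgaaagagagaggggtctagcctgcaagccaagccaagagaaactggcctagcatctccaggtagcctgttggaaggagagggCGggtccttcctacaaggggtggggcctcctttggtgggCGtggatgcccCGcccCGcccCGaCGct
Slc1a3: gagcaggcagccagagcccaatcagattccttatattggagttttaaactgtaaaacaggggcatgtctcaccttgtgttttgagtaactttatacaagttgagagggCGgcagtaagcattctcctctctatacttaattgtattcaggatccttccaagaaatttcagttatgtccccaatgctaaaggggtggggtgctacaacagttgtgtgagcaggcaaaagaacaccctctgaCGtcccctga
The Slc17a6, Slc17a7 and Slc1a3 sequences held 7, 9 and 2 CpGs, and their GC contents were 53.2%, 61.2% and 44.8%. The median over the promoters of 27025 genes was 6 CpGs, and over the 71 members matched in the promoter table it was 14 CpGs. The 27025 are all genes with a promoter given, while the members come from the listed genes alone. These medians are therefore of unlike sets and show no trait of carriers.

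Between the populations, carriers differed in both directions and the balance moved with stage. Each gene was compared with limma on log2(FPKM + 1) in 1 fit of all 12 libraries, so a positive log2 fold change means a higher level in Ebf2-EGFP+ cells, and an adjusted p (Benjamini-Hochberg over the 4859 genes) under 0.05 is a call. This scale understates the change of genes near or below 1 FPKM. At E11.5, 28 of 89 members (31.5%) were higher in Ebf2-EGFP+ cells and 48 (53.9%) were lower, where 36.8% and 44.9% of all listed genes were called higher and lower. At E13.5, 27 were higher (30.3%, background 32.1%) and 35 lower (39.3%, background 43.5%). At E15.5, 24 were higher (27.0%, background 25.8%) and 22 lower (24.7%, background 31.6%). The listed genes are those that the authors reported as differential, so the background is high, and the shares at E13.5 and those called higher at E15.5 were near it. The median log2 fold change of the members was -0.69 at E11.5, then -0.16 at E13.5, then 0.09 at E15.5, and the median of all listed genes was -0.19, -0.19 and -0.11.

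Scaling the libraries by the median of ratios used 4711 of the listed genes, which were reported as differential. Which scale is the truer one was therefore not settled. The scaling raised the median of all genes by 0.19, 0.19 and 0.13 at the 3 stages. After it, the split of higher and lower members became 32 to 44 at E11.5, then 35 to 31 at E13.5, then 32 to 18 at E15.5. The shares of all listed genes called after the scaling are not given here, so these splits show no trait of carriers. At E13.5 the larger side therefore depended on the scaling.

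**Figure D1:**
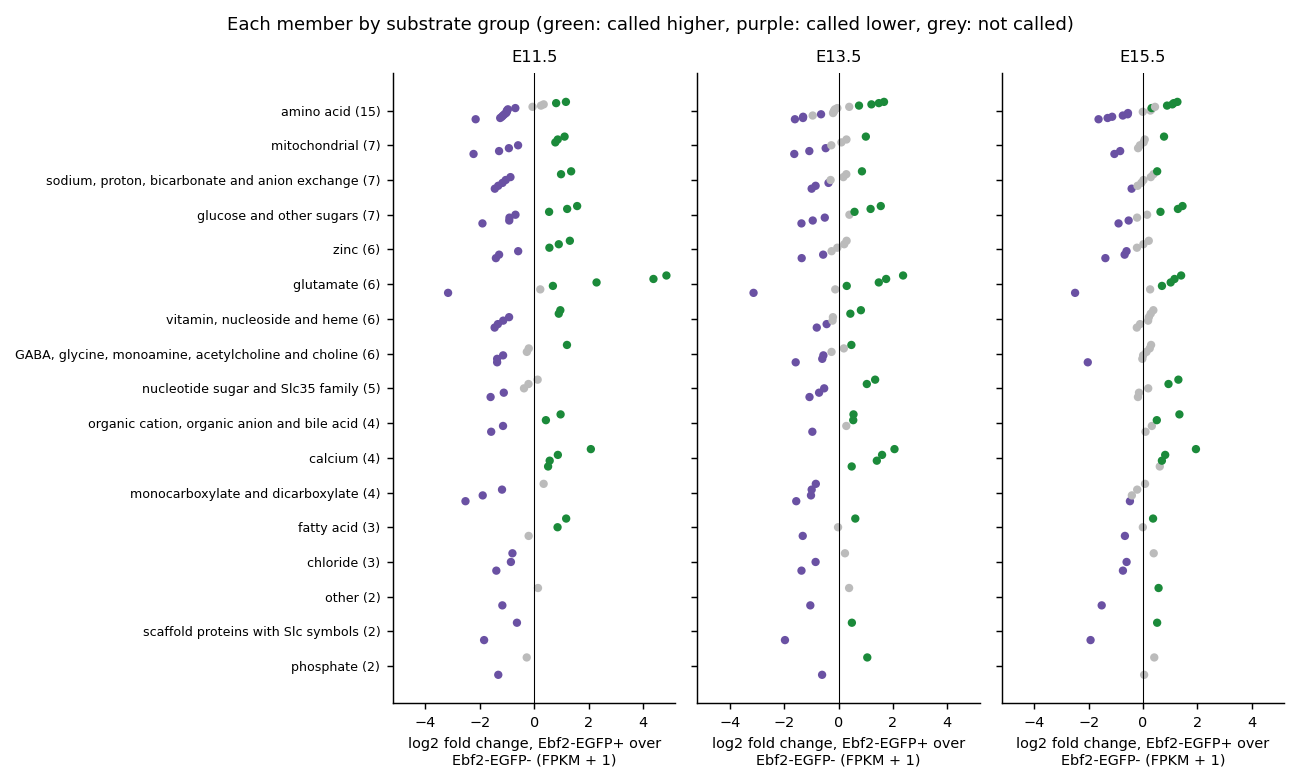
Log2 fold change of FPKM + 1 between Ebf2-EGFP+ and Ebf2-EGFP- cells (x axis) for each of the 89 members (points), by substrate group (rows, with the number of members) in 1 panel for each stage. Green points were called higher, purple points lower and grey points neither, and purple points outnumber green at E11.5 (48 to 28) and not at E15.5 (22 to 24).

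Of the 89 members, 15 were lower and 14 were higher in Ebf2-EGFP+ cells throughout, at all 3 stages. These are 16.9% and 15.7%, and 21.8% and 14.6% of all listed genes had the same calls. The 14 included 3 glutamate carriers (Slc17a7, Slc1a1 and Slc1a2), 3 calcium exchangers (Slc8a2, Slc8a3 and Slc24a3) and 2 sugar carriers (Slc2a6 and Slc45a1). The 15 included Slc1a3, 2 chloride cotransporters (Slc12a2 and Slc12a7), the glucose carrier Slc2a1 and the glutamine carrier Slc1a5. A further 14 were lower at E11.5 and E13.5 and not called at E15.5 (15.7%, against 655 of the 4859 listed genes), 11 were lower at E11.5 alone (12.4%, background 5.89%) and 9 were higher at E11.5 alone (10.1%, background 7.66%). The direction of the call turned in 8 members (8.99%, background 7.78%).

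Glutamate carriers differed between the populations at each stage. At E11.5, 4 of the 6 were higher in Ebf2-EGFP+ cells and 1 was lower (background 36.8% and 44.9%). The counts were the same at E13.5 (background 32.1% and 43.5%) and E15.5 (background 25.8% and 31.6%), but the members were not. Slc17a7, Slc1a1 and Slc1a2 were higher and Slc1a3 was lower in Ebf2-EGFP+ cells at every stage, while Slc17a6 was higher at E11.5 alone. Slc1a6 was called higher at E13.5, near the threshold, and at E15.5.

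Slc17a6 (VGLUT2; chr7:51622006-51671119) had 49.3 and 58.0 FPKM in the Ebf2-EGFP+ libraries of E11.5 and 0.622 and 1.15 FPKM in the Ebf2-EGFP- libraries. Its mean was 60.6 times as high in Ebf2-EGFP+ cells, and the log2 fold change was 4.87 ± 0.25 (SE), with an adjusted p of 5.7e-08. At E13.5 the Ebf2-EGFP+ libraries had 19.1 and 13.55 FPKM and the Ebf2-EGFP- libraries 18.4 and 16.9 FPKM. At E15.5 they had 10.2 and 17.5 FPKM against 10.1 and 12.1 FPKM. The libraries of both populations overlapped from E13.5 on, with log2 differences of -0.13 ± 0.25 and 0.26 ± 0.25 that were not called. Between E11.5 and E15.5 the level fell in Ebf2-EGFP+ cells (-1.92 ± 0.25, adjusted p = 2.8e-05) and rose in Ebf2-EGFP- cells (2.69 ± 0.25, adjusted p = 1.5e-06).

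Slc17a7 (VGLUT1; chr7:45163949-45176142) had 23.3 and 25.9 FPKM in Ebf2-EGFP+ cells at E11.5, then 59.3 and 52.0 at E13.5, then 49.5 and 26.3 at E15.5. The Ebf2-EGFP- libraries had 0.197 and 0.244 FPKM, then 14.3 and 17.5, then 16.3 and 10.5. The Ebf2-EGFP+ values were the higher ones at each stage, with no overlap. The log2 fold changes were 4.39 ± 0.27, 1.75 ± 0.27 and 1.40 ± 0.27, with adjusted p of 1.7e-07, 0.000133 and 0.000999. The difference narrowed between E11.5 and E15.5 for both vesicular genes, with a change of -4.61 ± 0.35 for Slc17a6 (adjusted p = 3.3e-06) and of -2.99 ± 0.38 for Slc17a7 (adjusted p = 7.7e-05). In Ebf2-EGFP+ cells the mean of Slc17a6 was above that of Slc17a7 at E11.5 and below it at E13.5 and E15.5, both in FPKM, which is per length.

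Slc1a1 (EAAC1; chr19:28835049-28913960) encodes the neuronal glutamate transporter of the cell body and dendrites. It had 1.21 and 1.17 FPKM in Ebf2-EGFP+ cells at E11.5, then 14.1 and 16 at E13.5, then 22.8 and 18.6 at E15.5. The Ebf2-EGFP- libraries had 0.435 and 0.287, 1.30 and 3.17, and 8.07 and 9.37 FPKM. It was above the Ebf2-EGFP- libraries at each stage and rose in both populations, by 3.30 ± 0.25 (adjusted p = 5.1e-07) and 2.84 ± 0.25 (adjusted p = 1.0e-06). The log2 fold change between the populations was 2.37 ± 0.25 at E13.5 (adjusted p = 1.2e-05) and 1.16 ± 0.25 at E15.5 (adjusted p = 0.00197). At E11.5 it was 0.69 ± 0.25 (adjusted p = 0.0209), a call that was lost without Ebf2-EGFP- replicate 2 (0.61), Ebf2-EGFP+ replicate 1 (0.67) or Ebf2-EGFP+ replicate 2 (0.70). Of its exon bases, 31.9% lie within an antisense gene, 4430402I18Rik, and the library kit is not stated to keep strand.

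Slc1a2 (GLT-1; chr2:102658659-102790784), a carrier best known from astrocytes, had 15.3 and 18.9 FPKM in Ebf2-EGFP+ cells at E11.5, then 11.8 and 7.69 at E13.5, then 7.99 and 5.59 at E15.5. The Ebf2-EGFP- libraries stayed between 2.2 and 4.09 FPKM. The Ebf2-EGFP+ level was the higher at each stage and the gap narrowed, with log2 fold changes of 2.30 ± 0.24 (adjusted p = 4.5e-06), 1.48 ± 0.24 (adjusted p = 0.000178) and 0.69 ± 0.24 (adjusted p = 0.0250). The E15.5 call was lost without Ebf2-EGFP+ replicate 1 (0.47) or Ebf2-EGFP- replicate 2 (0.60).

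Slc1a3 (GLAST; chr15:8634124-8710764, minus strand), the glutamate transporter of radial glia, was the member with the largest lower value at each stage. It had 0.477 and 0.630 FPKM in Ebf2-EGFP+ cells at E11.5, then 1.69 and 1.19 at E13.5, then 2.71 and 2.68 at E15.5. The Ebf2-EGFP- libraries had 13.3 and 12.6, 22.8 and 18.1, and 22.9 and 17.4 FPKM. The groups did not overlap, and the log2 fold changes were -3.17 ± 0.19 (adjusted p = 1.6e-07), -3.13 ± 0.19 (adjusted p = 1.4e-06) and -2.50 ± 0.19 (adjusted p = 2.3e-06). The radial glia markers given above, a list from which this gene was left out, were lower in Ebf2-EGFP+ libraries as well.

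Slc1a6 (EAAT4; chr10:78780496-78814765), a carrier best known from Purkinje cells, was low in all libraries. At E15.5 it reached 1.98 and 2.36 FPKM in Ebf2-EGFP+ cells, against 0.604 and 0.529 FPKM (1.01 ± 0.12, adjusted p = 4.8e-05). The values at E11.5 (0.22 ± 0.12) and E13.5 (0.30 ± 0.12) were smaller, and the E13.5 call (adjusted p = 0.0457) was lost without any 1 of its 4 libraries, with values from 0.29 to 0.31.

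**Figure D2:**
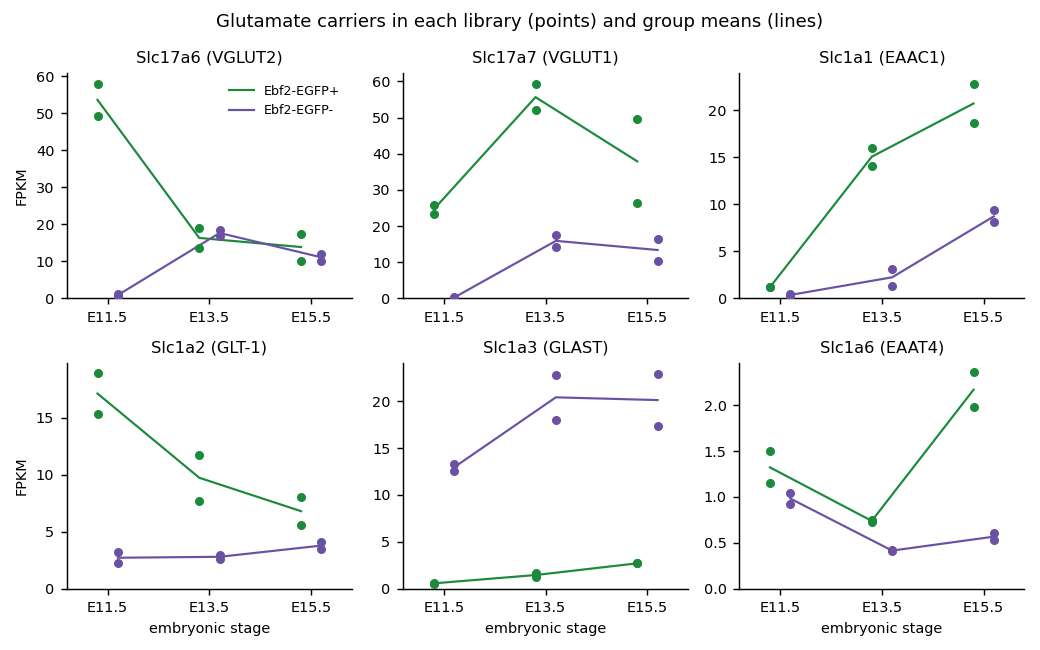
FPKM (y axis, linear from 0) of the 6 glutamate carriers by embryonic stage (x axis) in Ebf2-EGFP+ (green) and Ebf2-EGFP- (purple) cells. Points are libraries and lines join the means of 2; Slc17a6 starts at 49.3 and 58.0 FPKM in Ebf2-EGFP+ cells and meets the Ebf2-EGFP- level from E13.5 on, and Slc1a3 stays at or below 2.71 FPKM in Ebf2-EGFP+ cells.

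Only 3 Slc12 genes were listed, so the full balance of chloride import and export cannot be read here. These 3 cation-chloride cotransporters were at E11.5 all lower in Ebf2-EGFP+ cells (background 44.9%). Of them, 2 remained lower at E13.5 (background 43.5%) and E15.5 (background 31.6%). Slc12a2 (NKCC1; chr18:57878678-57946821), the main chloride importer of immature neurons, had 9.16 and 9.34 FPKM in Ebf2-EGFP+ cells at E11.5, then 7.93 and 8.52 at E13.5, then 5.57 and 4.87 at E15.5. The Ebf2-EGFP- libraries had 25.8 and 26.0, 15.53 and 15.67, and 9.37 and 7.64 FPKM. Every Ebf2-EGFP+ library was below both Ebf2-EGFP- libraries of its stage. The log2 fold changes were -1.39 ± 0.15 (adjusted p = 5.8e-06), -0.85 ± 0.15 (adjusted p = 0.000340) and -0.61 ± 0.15 (adjusted p = 0.00450). The gap shrank by 0.78 ± 0.21 between E11.5 and E15.5 (adjusted p = 0.00738), when the level fell by 1.51 ± 0.15 in Ebf2-EGFP- cells (adjusted p = 2.5e-06) and fell by 0.72 ± 0.15 in Ebf2-EGFP+ cells (adjusted p = 0.000882).

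Slc12a7 (KCC4; chr13:73733094-73816754), a potassium-chloride exporter, had 12 and 12.5 FPKM in Ebf2-EGFP+ cells at E11.5, then 4.89 and 3.48 at E13.5, then 3.67 and 5.14 at E15.5. Ebf2-EGFP- cells had 22.3 and 21.8, 13.7 and 11, and 8.29 and 7.66 FPKM. It fell in both populations, and the log2 fold changes between them were -0.80 ± 0.19 (adjusted p = 0.00202), -1.37 ± 0.19 (adjusted p = 7.2e-05) and -0.74 ± 0.19 (adjusted p = 0.00583). The last call was lost without Ebf2-EGFP+ replicate 1 (-0.55).

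Slc12a4 (KCC1; chr8:105943590-105966097, minus strand) took the other course. It had 0.831 and 1.18 FPKM in Ebf2-EGFP+ cells at E11.5, then 2.80 and 2.93 at E13.5, then 4.19 and 3.80 at E15.5, while the Ebf2-EGFP- libraries stayed between 2.07 and 2.94 FPKM. It was lower in Ebf2-EGFP+ cells at E11.5 (-0.86 ± 0.16, adjusted p = 0.000396) and rose in them by 1.32 ± 0.16 (adjusted p = 1.9e-05). At E15.5 both Ebf2-EGFP+ libraries were above both Ebf2-EGFP- libraries, with a difference of 0.39 ± 0.16 that missed the call (adjusted p = 0.0559) and passed with the replicate number as a block (adjusted p = 0.0434). After the scaling, the differences of 0.46 at E13.5 and 0.56 at E15.5 were called too.

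Among the 7 carriers of glucose and other sugars, 3 were higher and 4 were lower in Ebf2-EGFP+ cells at E11.5 (background 36.8% and 44.9%). The counts were then 3 and 3 at E13.5 (background 32.1% and 43.5%) and 3 and 2 at E15.5 (background 25.8% and 31.6%). Within Ebf2-EGFP+ cells the main glucose transporters parted from E11.5 to E15.5, with changes of -0.63 ± 0.15 for Slc2a1 and 1.74 ± 0.20 for Slc2a3. The difference between the populations moved towards Ebf2-EGFP+ cells for both, by 1.00 and 1.33. Slc2a1 (GLUT1), the glucose carrier of the blood-brain barrier and of many dividing cells, had 9.24 and 9.90 FPKM in Ebf2-EGFP+ cells at E11.5, then 8.76 and 7.61 at E13.5, then 5.76 and 5.89 at E15.5. In Ebf2-EGFP- libraries the values were 42.0 and 35.4, 24.4 and 21.1, and 12.3 and 11.3 FPKM. Every Ebf2-EGFP+ library was lower, with log2 fold changes of -1.90 ± 0.15 (adjusted p = 9.8e-07), -1.37 ± 0.15 (adjusted p = 1.8e-05) and -0.90 ± 0.15 (adjusted p = 0.000421). The endothelial markers given above were lower in Ebf2-EGFP+ libraries too.

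Slc2a3 (GLUT3), the glucose carrier of neurons, had 3.76 and 3.61 FPKM in Ebf2-EGFP+ cells at E11.5, then 7.33 and 9.94 at E13.5, then 14.2 and 15.1 at E15.5. Ebf2-EGFP- cells had 7.50 and 5.71, 4.57 and 6.27, and 8.54 and 9.59 FPKM. Ebf2-EGFP+ cells thus went from below to above Ebf2-EGFP- cells, with log2 fold changes of -0.69 ± 0.20 (adjusted p = 0.00663), 0.58 ± 0.20 (adjusted p = 0.0183) and 0.64 ± 0.20 (adjusted p = 0.0162). The change of the difference was 1.33 ± 0.28 (adjusted p = 0.00192). The single-stage calls were less firm. The E11.5 call was lost without Ebf2-EGFP- replicate 1 (-0.52) and after the scaling (-0.46). The E13.5 call was lost without Ebf2-EGFP- replicate 1 (0.39) or Ebf2-EGFP+ replicate 2 (0.39), and the E15.5 call without Ebf2-EGFP- replicate 1 (0.56) or Ebf2-EGFP+ replicate 2 (0.60).

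Slc2a6 (GLUT6) and Slc45a1, a proton-linked sugar carrier of the brain, were higher in Ebf2-EGFP+ cells at all stages. Slc2a6 had 1.23 and 0.993 FPKM at E11.5 and 3.17 and 4.01 FPKM at E15.5, against 0.393 and 0.486 and then 0.696 and 0.652 FPKM. Its log2 fold changes were 0.55 ± 0.14, 1.18 ± 0.14 and 1.45 ± 0.14, with adjusted p of 0.00366, 3.2e-05 and 1.2e-05. Slc45a1 had 6.90 and 5.39 FPKM at E11.5 and 14.9 and 12.3 FPKM at E15.5, against 1.48 and 1.27 and then 5.36 and 4.66 FPKM. Its log2 fold changes were 1.58 ± 0.18, 1.55 ± 0.18 and 1.28 ± 0.18, with adjusted p of 9.7e-06, 2.4e-05 and 0.000128.

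Of the 4 monocarboxylate carriers, 3 were lower in Ebf2-EGFP+ cells at E11.5 (background 44.9%), then 4 at E13.5 (43.5%), then 1 at E15.5 (31.6%). Slc16a1, Slc16a3 and Slc16a6 were lower at E11.5 and E13.5 and not called at E15.5. Slc16a1 (MCT1), which carries lactate and pyruvate with protons, had 1.63 and 1.73 FPKM in Ebf2-EGFP+ cells at E11.5, then 4.66 and 5.26 at E13.5, then 6.33 and 5.54 at E15.5. In Ebf2-EGFP- libraries the values were 16 and 13, 11 and 8.50, and 6.88 and 4.51 FPKM. The level rose in Ebf2-EGFP+ cells and fell in Ebf2-EGFP- cells until the libraries overlapped. The log2 fold changes were -2.53 ± 0.21 (adjusted p = 1.1e-06), -0.84 ± 0.21 (adjusted p = 0.00308) and 0.07 ± 0.21, and the shift of 2.60 ± 0.29 between the first and last stage was the largest upward change among the named members (adjusted p = 3.8e-05).

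Slc16a3 (MCT4), the lactate exporter of glycolytic cells, had 2.22 and 2.08 FPKM in Ebf2-EGFP+ and 11.6 and 9.85 FPKM in Ebf2-EGFP- cells at E11.5. At E15.5 it had 0.421 and 0.325 FPKM against 1.18 and 0.531 FPKM. It fell in both populations, and the log2 fold changes were -1.89 ± 0.19 (adjusted p = 4.0e-06), -1.56 ± 0.19 (adjusted p = 3.3e-05) and -0.41 ± 0.19 (adjusted p = 0.0804, and 0.0265 with the replicate block). Slc16a6 (MCT7) was lower at E11.5 (-1.18 ± 0.18, adjusted p = 7.5e-05) and E13.5 (-0.99 ± 0.18, adjusted p = 0.000406) and had -0.22 ± 0.18 at E15.5. Of its exon bases, 23.5% lie within other annotated genes. Slc16a14, named here after its values were seen, had 3.47 and 3.63 against 2.63 and 2.52 FPKM at E11.5 (0.35 ± 0.17, adjusted p = 0.0725) and was lower at E13.5 (-1.02 ± 0.17, adjusted p = 0.000223). Its E15.5 call (-0.49 ± 0.17, adjusted p = 0.0268) was lost after the scaling (-0.33) and without Ebf2-EGFP- replicate 1 (-0.33) or Ebf2-EGFP+ replicate 1 (-0.40).

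**Figure D3:**
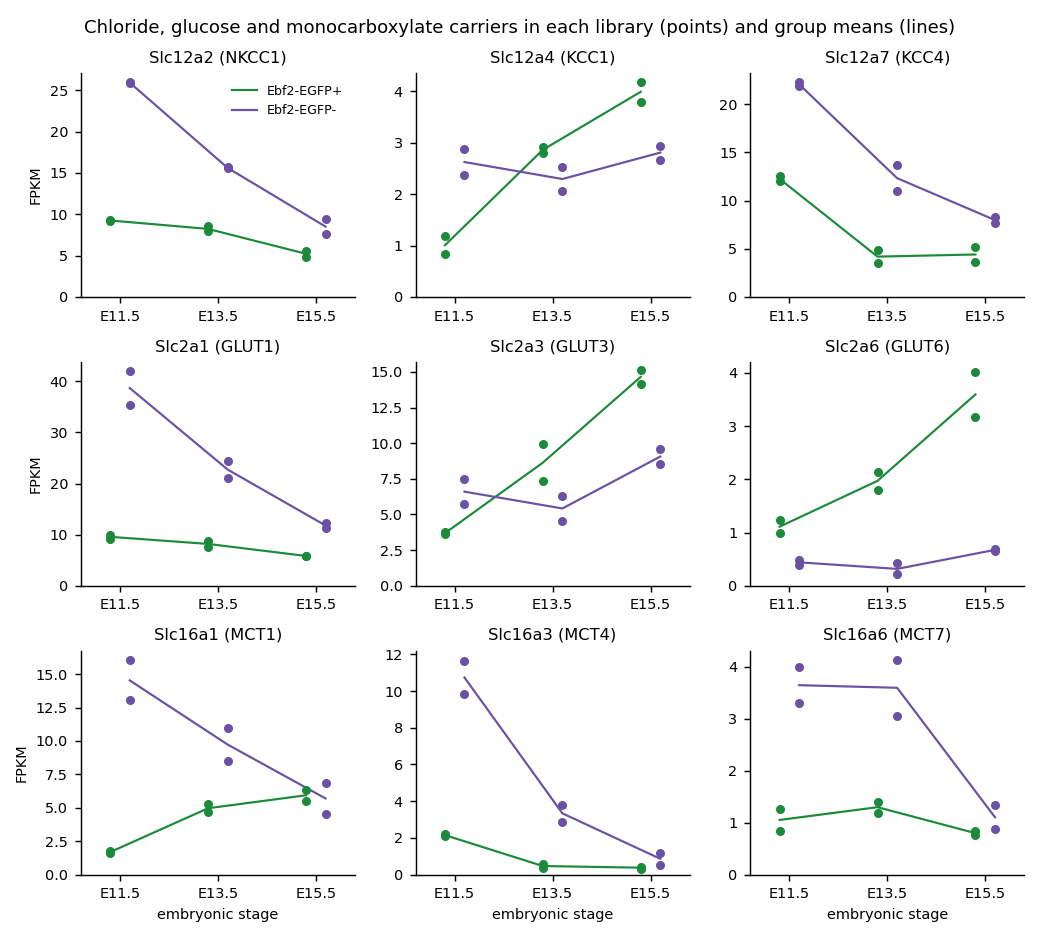
FPKM (y axis, linear from 0) of 3 chloride, 3 glucose and 3 monocarboxylate carriers by embryonic stage (x axis) in Ebf2-EGFP+ (green) and Ebf2-EGFP- (purple) cells. Points are libraries and lines join the means of 2; Slc2a1 lies below the Ebf2-EGFP- level at each stage, Slc2a3 crosses it, and Slc16a1 meets it at E15.5 (6.33 and 5.54 against 6.88 and 4.51 FPKM).

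Calcium exchangers were called higher in Ebf2-EGFP+ cells in 4 of 4 members at E11.5 and E13.5 and in 3 of 4 at E15.5. The shares of all listed genes called higher were 36.8%, 32.1% and 25.8% at the 3 stages. Slc8a1, Slc8a2 and Slc8a3 (NCX1 to NCX3) exchange sodium for calcium across the plasma membrane. At E11.5 Slc8a2 had 27.0 and 27.1 FPKM in Ebf2-EGFP+ and 5.57 and 5.65 FPKM in Ebf2-EGFP- cells, and 53.5 and 37.0 against 26.3 and 28.1 FPKM at E15.5. Its log2 fold changes were 2.09 ± 0.23 (adjusted p = 8.3e-06), 1.41 ± 0.23 (adjusted p = 0.000233) and 0.69 ± 0.23 (adjusted p = 0.0242). The last was lost without Ebf2-EGFP+ replicate 1 (0.43) or Ebf2-EGFP- replicate 1 (0.65).

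Slc8a3 moved the other way. At E11.5 it had 1.31 and 1.63 FPKM in Ebf2-EGFP+ and 0.749 and 0.708 FPKM in Ebf2-EGFP- cells, then 7.08 and 7.95 against 0.777 and 1.35 at E13.5, and 12.3 and 10.5 against 2.53 and 1.93 at E15.5. The log2 fold change went from 0.51 ± 0.18 (adjusted p = 0.0221) to 2.06 ± 0.18 (adjusted p = 5.9e-06) and 1.94 ± 0.18 (adjusted p = 8.7e-06). The E11.5 call was lost without Ebf2-EGFP- replicate 1 (0.53), Ebf2-EGFP- replicate 2 (0.50) or Ebf2-EGFP+ replicate 2 (0.42). The change of the difference between E11.5 and E15.5 was -1.40 ± 0.33 for Slc8a2 (adjusted p = 0.00375) and 1.43 ± 0.26 for Slc8a3 (adjusted p = 0.000784). Slc8a1 rose in both populations, to 14.3 and 15.4 FPKM in Ebf2-EGFP+ and 6.89 and 12.6 FPKM in Ebf2-EGFP- cells by E15.5. Its log2 fold changes were 0.87 ± 0.25 (adjusted p = 0.00722), 1.60 ± 0.25 (adjusted p = 0.000175) and 0.61 ± 0.25 (adjusted p = 0.0565, and 0.00990 with the replicate block). Leaving out Ebf2-EGFP- replicate 2 at E15.5 raised the last value to 1.01.

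Of the 15 amino acid carriers, 10 were lower and 2 higher in Ebf2-EGFP+ cells at E11.5 (background 44.9% and 36.8%). The counts were then 4 and 4 at E13.5 (background 43.5% and 32.1%) and 6 and 5 at E15.5 (background 31.6% and 25.8%). Carriers that rose in Ebf2-EGFP+ cells included Slc6a15 and Slc6a17, neuronal carriers of neutral amino acids, the second of which sits on synaptic vesicles. Slc6a17 had 4.07 and 4.63 FPKM in Ebf2-EGFP+ cells at E11.5, then 30.4 and 36.0 at E13.5, then 49.5 and 36.4 at E15.5, against 3.29 and 3.09, 9.27 and 13.6, and 22.7 and 22.5 FPKM. It was above the Ebf2-EGFP- libraries throughout, and the log2 fold changes were 0.35 ± 0.20 (adjusted p = 0.119, and 0.0345 with the replicate block), 1.48 ± 0.20 (adjusted p = 5.6e-05) and 0.88 ± 0.20 (adjusted p = 0.00274). Slc7a4, a relative of the cationic amino acid carriers, was higher at all stages (0.81 ± 0.18, 1.67 ± 0.18 and 1.13 ± 0.18, with adjusted p of 0.00121, 1.4e-05 and 0.000284).

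Slc1a5 (ASCT2), the glutamine carrier of proliferating cells, had 2.0 and 1.70 FPKM in Ebf2-EGFP+ and 13.4 and 10.1 FPKM in Ebf2-EGFP- cells at E11.5. At E15.5 it had 0.635 and 0.634 FPKM against 3.60 and 1.82 FPKM. It was lower at all stages, with log2 fold changes of -2.15 ± 0.22, -1.61 ± 0.22 and -1.14 ± 0.22 and adjusted p of 4.6e-06, 6.8e-05 and 0.00111. The cell cycle genes given above fell along the same stages. Slc15a2 (PEPT2), a carrier of small peptides, had 14.2 and 13 FPKM in Ebf2-EGFP- cells and 5.97 and 7.13 FPKM in Ebf2-EGFP+ cells at E13.5. That difference of -0.95 ± 0.42 was not called (adjusted p = 0.0551) and passed with the replicate block (adjusted p = 0.000250). At E15.5 Slc15a2 was lower (-1.64 ± 0.42, adjusted p = 0.00580), with 0.815 and 0.920 against 4.62 and 5.03 FPKM. At E11.5 its replicates differed widely, with 0.145 and 2.34 FPKM in Ebf2-EGFP+ and 0.413 and 1.94 FPKM in Ebf2-EGFP- cells.

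The 7 mitochondrial carriers divided into 3 higher and 4 lower at E11.5 (background 36.8% and 44.9%). They then divided into 1 and 3 at E13.5 (background 32.1% and 43.5%) and 1 and 2 at E15.5 (background 25.8% and 31.6%). At E11.5 Slc25a13 (citrin), the aspartate-glutamate carrier, had 1.94 and 2.02 FPKM in Ebf2-EGFP+ and 14.2 and 11.9 FPKM in Ebf2-EGFP- cells, and it fell to 0.523 and 0.266 against 2.04 and 1.05 FPKM at E15.5. Its log2 fold changes were -2.23 ± 0.22 (adjusted p = 3.3e-06), -1.63 ± 0.22 (adjusted p = 5.4e-05) and -0.85 ± 0.22 (adjusted p = 0.00597), the last of which was lost without Ebf2-EGFP- replicate 1 (-0.56). Slc25a15, the ornithine carrier, was lower at E11.5 alone (-1.29 ± 0.18, adjusted p = 4.7e-05), with -0.27 ± 0.18 and 0.02 ± 0.18 later.

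Slc25a27 (UCP4), a neuronal uncoupling protein, was higher at E11.5, with 13.4 and 15.9 against 4.11 and 9.08 FPKM (1.12 ± 0.27, adjusted p = 0.00231), and had 0.10 ± 0.27 and -0.12 ± 0.27 later. The highest-expressed member in each group of libraries, named here after its values were seen, was Slc25a5 (ANT2), the ADP/ATP carrier, with 107 to 208 FPKM in Ebf2-EGFP+ and 196 to 408 FPKM in Ebf2-EGFP- libraries. Processed copies of this gene exist in the genome and how reads were shared among them is not given in the sources used here, so its level is uncertain.

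The 6 zinc-family members were 3 higher and 3 lower at E11.5 (background 36.8% and 44.9%). They were 2 lower at E13.5 (background 43.5%) and 3 lower at E15.5 (background 31.6%). Slc30a10, a family member best known for exporting manganese, changed sides. At E11.5 it had 1.84 and 3.43 FPKM in Ebf2-EGFP+ and 0.351 and 0.510 FPKM in Ebf2-EGFP- cells, then 12.6 and 11.7 against 13.2 and 16.6 at E13.5, and 3.31 and 2.73 against 10.1 and 8.93 at E15.5. It was higher at E11.5 (1.31 ± 0.22, adjusted p = 0.000151), had -0.26 ± 0.22 at E13.5, and was lower at E15.5 (-1.39 ± 0.22, adjusted p = 0.000267). The importer Slc39a1 (ZIP1) was lower at all stages, with 11.3 and 10.8 against 33.3 and 28.7 FPKM at E11.5 (-1.41 ± 0.17, adjusted p = 1.6e-05), -1.36 ± 0.17 at E13.5 (adjusted p = 4.1e-05) and -0.68 ± 0.17 at E15.5 (adjusted p = 0.00563). The E15.5 call was lost without Ebf2-EGFP- replicate 1 (-0.45). Slc39a8 (ZIP8) was lower at E11.5 (-1.29 ± 0.12, adjusted p = 1.9e-06) and E15.5 (-0.61 ± 0.12, adjusted p = 0.000933), with -0.05 ± 0.12 at E13.5.

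Among carriers of transmitters other than glutamate, Slc18a2 (VMAT2), the vesicular monoamine transporter, was lower at E11.5 alone, with 1.94 and 1.79 against 5.13 and 7.84 FPKM (-1.36 ± 0.17, adjusted p = 2.1e-05).

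Of the 7 exchangers of sodium, protons, bicarbonate and other anions, 5 were lower and 2 higher at E11.5 (background 44.9% and 36.8%). The counts were then 3 and 1 at E13.5 (background 43.5% and 32.1%) and 1 and 1 at E15.5 (background 31.6% and 25.8%). Slc4a10 (NCBE), a sodium-driven bicarbonate carrier of neurons, had 1.53 and 2.21 FPKM in Ebf2-EGFP+ and 0.0865 and 0.129 FPKM in Ebf2-EGFP- cells at E11.5 (1.36 ± 0.17, adjusted p = 1.8e-05). The difference was 0.17 ± 0.17 at E13.5 and 0.38 ± 0.17 at E15.5 (adjusted p = 0.0714, and 0.0301 with the replicate block). The anion exchanger Slc4a2 (AE2) was lower at E11.5, with 2.84 and 2.99 against 10.2 and 9.16 FPKM (-1.45 ± 0.17, adjusted p = 1.0e-05), and at E13.5 (-0.99 ± 0.17, adjusted p = 0.000247). Slc4a4 (NBCe1), the bicarbonate carrier of glia, was lower at E11.5 (-1.32 ± 0.16, adjusted p = 1.5e-05) and E13.5 (-0.85 ± 0.16, adjusted p = 0.000573). Its E15.5 value of -0.42 ± 0.16 (adjusted p = 0.0401) was not called after the scaling (-0.29) or without Ebf2-EGFP- replicate 2 (-0.25), Ebf2-EGFP+ replicate 1 (-0.39) or Ebf2-EGFP+ replicate 2 (-0.45).

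The phosphate carriers Slc20a1 (PiT1) and Slc20a2 (PiT2) differed in timing. Slc20a1 peaked in Ebf2-EGFP+ cells at E13.5, with 71.3 and 81.4 FPKM against 29.1 and 45.0 FPKM (1.05 ± 0.19, adjusted p = 0.000449). It had 24.4 and 28.3 against 30.4 and 33.5 FPKM at E11.5 (-0.27 ± 0.19, adjusted p = 0.203, and 0.0489 with the replicate block) and 21.0 and 18.5 against 20.3 and 18.1 FPKM at E15.5. Slc20a2 was lower at E11.5 (-1.32 ± 0.19, adjusted p = 4.6e-05) and E13.5 (-0.61 ± 0.19, adjusted p = 0.0111). The E13.5 call was lost after the scaling (-0.35) and without Ebf2-EGFP- replicate 1 (-0.52) or Ebf2-EGFP+ replicate 2 (-0.50). At E15.5 its difference of 0.41 ± 0.19 (adjusted p = 0.0774) passed with the replicate block (adjusted p = 0.0230) and without Ebf2-EGFP- replicate 1 (0.63).

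Among the 3 fatty acid carriers, Slc27a2 was highest at the first stage, with 3.37 and 4.35 FPKM in Ebf2-EGFP+ and 0.981 and 1.31 FPKM in Ebf2-EGFP- cells at E11.5 (1.18 ± 0.12, adjusted p = 5.1e-06) and at most 0.126 FPKM in any library later. Slc27a1 (FATP1) was lower at E13.5, with 5.28 and 4.16 against 14.7 and 11.9 FPKM (-1.32 ± 0.26, adjusted p = 0.000817). Its E15.5 value of -0.67 ± 0.26 (adjusted p = 0.0463) was not called after the scaling (-0.49) or without Ebf2-EGFP- replicate 1 (-0.37), Ebf2-EGFP+ replicate 1 (-0.82) or Ebf2-EGFP+ replicate 2 (-0.52). Slc27a4 (FATP4) was higher at E11.5, with 16.2 and 16 against 8.98 and 7.85 FPKM (0.86 ± 0.15, adjusted p = 0.000178), and at E13.5 (0.61 ± 0.15, adjusted p = 0.00255). Its E15.5 value of 0.37 ± 0.15 (adjusted p = 0.0483) was not called without Ebf2-EGFP- replicate 1 (0.31), Ebf2-EGFP- replicate 2 (0.42) or Ebf2-EGFP+ replicate 1 (0.25).

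Carriers of vitamins, nucleosides and nucleobases were 4 lower and 2 higher of 6 at E11.5 (background 44.9% and 36.8%). They were 2 and 2 at E13.5 (background 43.5% and 32.1%), and at E15.5 their log2 fold changes ran from -0.23 to 0.38. Slc29a1 (ENT1), the equilibrative nucleoside transporter, had 3.67 and 4.21 against 12.3 and 10.7 FPKM at E11.5 (-1.34 ± 0.20, adjusted p = 7.3e-05) and rose in Ebf2-EGFP+ cells to 13.7 and 20.2 FPKM at E15.5, against 13.3 and 15.2 FPKM. The thiamine carrier Slc19a2 was lower at E11.5 (-1.14 ± 0.17, adjusted p = 6.9e-05) and E13.5 (-0.81 ± 0.17, adjusted p = 0.00117). Slc43a3, a purine nucleobase carrier, was lower at E11.5 (-1.46 ± 0.13, adjusted p = 2.4e-06). Its E13.5 call (-0.44 ± 0.13, adjusted p = 0.0108) was lost without Ebf2-EGFP- replicate 1 (-0.31) or Ebf2-EGFP+ replicate 2 (-0.34).

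The urea carrier Slc14a2 was lower at all stages, with 0.453 and 0.386 against 3.24 and 2.93 FPKM at E15.5 (-1.52 ± 0.14, adjusted p = 6.2e-06). The scaffold gene Slc9a3r1 (NHERF1) was lower at all stages as well, with 1.88 and 1.46 against 9.66 and 7.54 FPKM at E11.5 (-1.84 ± 0.28, adjusted p = 7.2e-05), -1.98 ± 0.28 at E13.5 (adjusted p = 7.5e-05) and -1.93 ± 0.28 at E15.5 (adjusted p = 0.000141).

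Of the 4 carriers of organic ions and bile acids, Slc10a4, which sits on synaptic vesicles, was lower at E11.5, with 2.10 and 1.91 against 5.15 and 6.19 FPKM (-1.15 ± 0.17, adjusted p = 7.7e-05). Slc22a23 was lower at E11.5, with 4.26 and 4.79 against 17.3 and 13.9 FPKM (-1.58 ± 0.16, adjusted p = 4.5e-06), and at E13.5 (-0.97 ± 0.16, adjusted p = 0.000255), and had 0.09 ± 0.16 at E15.5. Slc22a15 was higher at E11.5 (0.97 ± 0.18, adjusted p = 0.000361) and E15.5 (1.34 ± 0.18, adjusted p = 9.9e-05). Its E13.5 call (0.55 ± 0.18, adjusted p = 0.0164) was lost without Ebf2-EGFP- replicate 1 (0.45), Ebf2-EGFP+ replicate 1 (0.53) or Ebf2-EGFP+ replicate 2 (0.56). In the Slc35 family, Slc35f2 was higher at E13.5 (1.04 ± 0.22, adjusted p = 0.00121) and E15.5 (1.30 ± 0.22, adjusted p = 0.000451), with 4.33 and 5.95 against 1.11 and 1.91 FPKM at the latter. Slc35f4 was higher at E13.5 alone, with 3.10 and 2.41 against 0.518 and 0.431 FPKM (1.34 ± 0.14, adjusted p = 1.0e-05).

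The 8 members whose call turned direction were Slc30a10, which went from higher to lower, and 7 that went from lower to higher in Ebf2-EGFP+ cells. Slc30a10 and Slc2a3 are described above. Slc6a15 had 2.81 and 2.47 FPKM in Ebf2-EGFP+ cells at E11.5, then 16 and 15.4 at E13.5, then 30.2 and 39.1 at E15.5, while the Ebf2-EGFP- libraries had 7.46 and 7.84, 6.11 and 6.36, and 12.8 and 14.7 FPKM. The groups did not overlap at any stage, and the log2 fold changes were -1.25 ± 0.16 (adjusted p = 2.4e-05), 1.21 ± 0.16 (adjusted p = 5.6e-05) and 1.26 ± 0.16 (adjusted p = 6.4e-05).

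Slc35f1, a member of the nucleotide sugar family, had 8.35 and 8.77 FPKM in Ebf2-EGFP+ cells at E11.5, then 18.9 and 20.7 at E13.5, then 54.2 and 70.8 at E15.5. The Ebf2-EGFP- libraries stayed between 24.8 and 33.2 FPKM. The Ebf2-EGFP+ level thus crossed a nearly level Ebf2-EGFP- value, with log2 fold changes of -1.60 ± 0.17 (adjusted p = 4.6e-06), -0.53 ± 0.17 (adjusted p = 0.0120) and 0.93 ± 0.17 (adjusted p = 0.000615). The E13.5 call was lost after the scaling (-0.23) and without Ebf2-EGFP- replicate 1 (-0.48) or Ebf2-EGFP+ replicate 1 (-0.47).

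Slc44a1, a choline carrier, had 1.90 and 2.31 against 7.58 and 6.41 FPKM at E11.5 (-1.36 ± 0.17, adjusted p = 1.5e-05), 10.2 and 9.59 against 6.96 and 6.75 at E13.5, and 5.04 and 5.13 against 4.57 and 5.65 at E15.5. The E13.5 value of 0.47 ± 0.17 (adjusted p = 0.0222) was lost without any 1 of its 4 libraries (0.43 to 0.51), so the turn of this gene rests on a call near the threshold. Slc9a3r2 (NHERF2) had 1.51 and 1.53 against 3.31 and 2.55 FPKM at E11.5 (-0.63 ± 0.18, adjusted p = 0.00578) and 4.02 and 5.02 against 2.38 and 3.37 FPKM at E15.5 (0.52 ± 0.18, adjusted p = 0.0266), with 0.49 ± 0.18 at E13.5 (adjusted p = 0.0261). The E11.5 call was lost without Ebf2-EGFP- replicate 1 (-0.49), and the E15.5 call without Ebf2-EGFP- replicate 1 (0.33) or Ebf2-EGFP+ replicate 2 (0.39). The E13.5 call was lost without Ebf2-EGFP- replicate 2 (0.42), Ebf2-EGFP+ replicate 1 (0.46) or Ebf2-EGFP+ replicate 2 (0.52).

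The last pair was low throughout. Slc38a4 (SNAT4), a neutral amino acid carrier, had 0.994 and 0.949 against 2.70 and 1.75 FPKM at E11.5 (-0.69 ± 0.21, adjusted p = 0.0103, lost without Ebf2-EGFP- replicate 1 at -0.48) and 0.678 and 1.85 against 0.0553 and 0.0212 FPKM at E15.5 (1.07 ± 0.21, adjusted p = 0.00134). Slc16a10 (TAT1), which carries aromatic amino acids, had 0.386 and 0.518 against 1.81 and 2.02 FPKM at E11.5 (-1.01 ± 0.12, adjusted p = 1.3e-05). At E15.5 it had 0.362 and 0.675 against 0.187 and 0.245 FPKM (0.31 ± 0.12, adjusted p = 0.0414), and this call was lost without Ebf2-EGFP+ replicate 2 (0.16), Ebf2-EGFP- replicate 1 (0.28) or Ebf2-EGFP- replicate 2 (0.35).

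**Figure D4:**
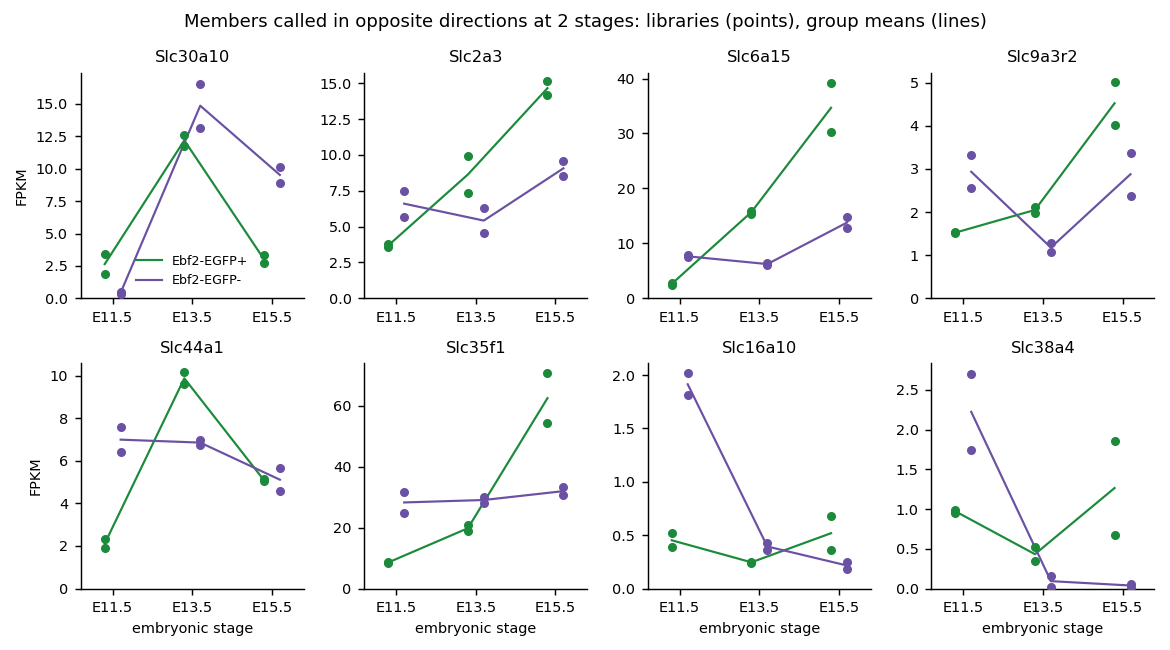
FPKM (y axis, linear from 0) by embryonic stage (x axis) of the 8 members called in opposite directions between the populations at different stages. Points are libraries and lines join the means of 2, with Ebf2-EGFP+ in green and Ebf2-EGFP- in purple; the lines of Slc35f1 and Slc6a15 cross upward and that of Slc30a10 crosses downward.

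The difference between the populations itself changed between E11.5 and E15.5 in 56 of the 89 members. It moved towards Ebf2-EGFP+ cells in 39 (43.8%, background 32%) and towards Ebf2-EGFP- cells in 17 (19.1%, background 27.7%). The median change was 0.47 for the members and 0.17 for all listed genes. The changes towards Ebf2-EGFP+ cells were led by Slc16a1 (2.60 ± 0.29, adjusted p = 3.8e-05), Slc35f1 (2.54 ± 0.23, adjusted p = 1.1e-05) and Slc6a15 (2.51 ± 0.23, adjusted p = 9.9e-06). Those towards Ebf2-EGFP- cells were led by Slc17a6 (-4.61 ± 0.35, adjusted p = 3.3e-06), Slc17a7 (-2.99 ± 0.38, adjusted p = 7.7e-05) and Slc30a10 (-2.70 ± 0.31, adjusted p = 4.1e-05).

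Within each population, carriers rose and fell with stage. From E11.5 to E15.5, 36 members rose in Ebf2-EGFP+ cells (40.4%, background 33.3%) and 26 fell (29.2%, background 42.1%). In Ebf2-EGFP- cells 31 rose (34.8%, background 37.7%) and 37 fell (41.6%, background 47.6%), and after the scaling 37 rose and 31 fell. The scaling raised the median of all genes by 0.14 and 0.22 in these comparisons. The shares of all listed genes called after it are not given here. In Ebf2-EGFP+ cells the largest rises were those of Slc1a1 (3.30 ± 0.25), Slc6a15 (3.28 ± 0.16, adjusted p = 4.2e-08) and Slc6a17 (3.02 ± 0.20, adjusted p = 2.0e-07). Slc27a2 (-2.23 ± 0.12, adjusted p = 8.9e-08) and Slc17a6 (-1.92 ± 0.25) were among the largest falls.

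In Ebf2-EGFP- cells the largest rises were those of Slc17a7 (3.53 ± 0.27, adjusted p = 4.0e-07), Slc30a10 (2.88 ± 0.22, adjusted p = 4.0e-07) and Slc1a1 (2.84 ± 0.25). The largest falls were those of Slc16a3 (-2.68 ± 0.19, adjusted p = 2.6e-07), Slc10a4 (-2.50 ± 0.17, adjusted p = 2.2e-07) and Slc25a13 (-2.49 ± 0.22, adjusted p = 1.1e-06). The summed level of the cortical plate markers given above was also higher in these cells at the last stage, and its part in the rise of Slc17a7 was not tested. The glutamate uptake carrier Slc1a1 was among the largest rises of both populations.

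**Figure D5:**
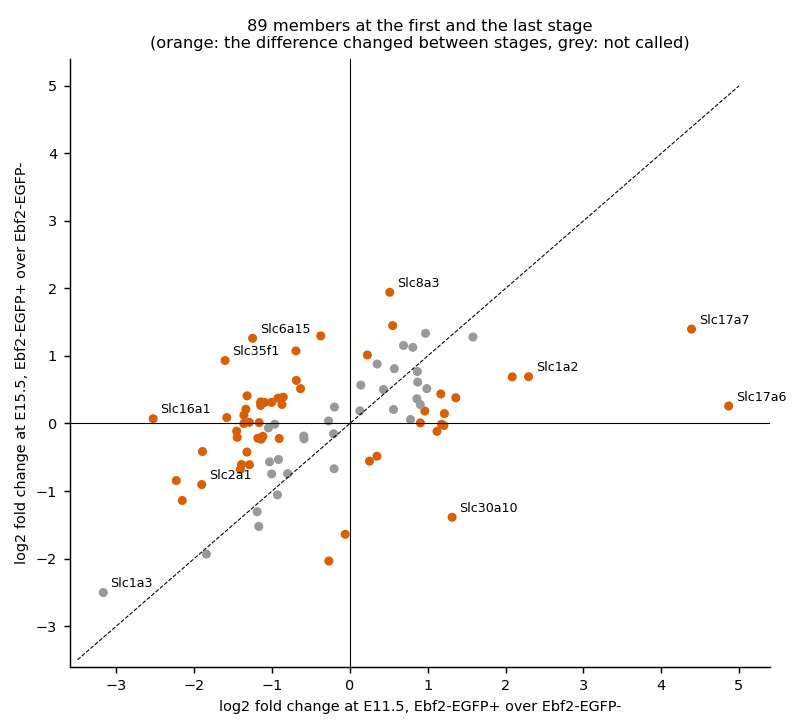
Log2 fold change of FPKM + 1 of Ebf2-EGFP+ over Ebf2-EGFP- cells at E11.5 (x axis) and at E15.5 (y axis) for the 89 members, with the dashed line marking equal values. Orange points are the 56 members whose difference changed between these stages; Slc17a6 lies far right near 0 on the y axis (4.87 and 0.26), and Slc1a3 lies near the line (-3.17 and -2.50).

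Genes that work beside the carriers were read from a list of 24, of which 13 were among the listed genes. Of these 13, 4 were higher and 9 were lower in Ebf2-EGFP+ cells both at E11.5 and at E13.5. The background was 36.8% higher and 44.9% lower at E11.5, and 32.1% and 43.5% at E13.5. At E15.5, 4 were higher and 6 lower (background 25.8% and 31.6%). The 13 are only those partner genes that were reported as differential in these same samples. A high count of calls among them therefore shows no trait of partner genes.

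Ldha, which makes the lactate that monocarboxylate carriers move, had 68.0 ± 2.76 FPKM (SD, n = 2) in Ebf2-EGFP+ and 387 ± 49.3 FPKM in Ebf2-EGFP- cells at E11.5 (-2.48 ± 0.18, SE, adjusted p = 6.3e-07). At E15.5 it had 210 ± 5.6 against 143 ± 24.2 FPKM (0.56 ± 0.18, adjusted p = 0.0215), a call that was lost without Ebf2-EGFP- replicate 2 (0.39), Ebf2-EGFP+ replicate 1 (0.53) or Ebf2-EGFP+ replicate 2 (0.59). In Ebf2-EGFP+ cells Ldha rose between these stages by 1.61 ± 0.18 (adjusted p = 1.1e-05) and Slc16a1 by 1.37 ± 0.21 (adjusted p = 8.7e-05). The other monocarboxylate carriers did not rise in these cells. Slc16a3 fell (-1.20 ± 0.19, adjusted p = 0.00013) and Slc16a6 had -0.18 ± 0.18, which was not called. Slc16a14 fell (-0.47 ± 0.17, adjusted p = 0.0228), a call lost in 3 of 4 fits with 1 library left out. The metallothionein genes Mt1, Mt2 and Mt3, which bind zinc, were lower in Ebf2-EGFP+ cells at all stages. Their log2 fold changes were -3.20 ± 0.41, -3.45 ± 0.52 and -2.41 ± 0.36 at E11.5 (adjusted p = 2.2e-05, 7.6e-05 and 6.6e-05). At E15.5 they were -2.35 ± 0.41, -2.66 ± 0.52 and -2.10 ± 0.36. The Ebf2-EGFP- replicates of E15.5 differed widely, with 28.3 ± 22.6 FPKM (SD, n = 2) for Mt1 and 24.1 ± 22.8 FPKM for Mt2. Stk39, a kinase that activates Slc12a2, was lower at E11.5 (-1.19 ± 0.18, adjusted p = 7.4e-05) and had 0.17 ± 0.18 at E15.5. Its E13.5 call (-0.48 ± 0.18, adjusted p = 0.0272) was lost after the scaling (-0.19) and without Ebf2-EGFP- replicate 1 (-0.35), Ebf2-EGFP+ replicate 1 (-0.54) or Ebf2-EGFP+ replicate 2 (-0.43).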

How the data were processed

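Poly(A) RNA of FACS-sorted cells from pooled embryos was sequenced in 12 libraries, 2 biological replicates for each of 2 populations at 3 stages. The FPKM values were made and deposited by the authors with TopHat2 2.0.8b and Cufflinks 2.2.0 on mm10, per the submitters' processing notes and the study's methods. The deposited table holds genes reported as differential, so it is not all genes. The study gives an average number of reads, and the depth of each single library is unknown. The notes name Cuffdiff and the study also DE-Seq, and which chose the genes is not settled here. Strand-specific counting is not stated. A second table of noncoding RNAs was not used.

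From these values log2(FPKM + 1) was fitted with limma 3.58.1 in R 4.3.3, with trend, all 12 libraries as 6 groups, and Benjamini-Hochberg adjustment over 4859 genes. The procedure was tested on simulated data. With 2 libraries against 2, an exact permutation test cannot go below p = 0.333, so calls rest on the spread shared across genes. Samples were grouped by their labels. Same-numbered libraries deviated together at each stage (r = 0.431, 0.534 and 0.431 over genes), so a fit with the replicate number as a block was an alternative. Replicates within a group correlated at r = 0.979 to 0.990 over the members.

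The members, gene lists and substrate groups were chosen with earlier results of these data known. By rule the text names 54 members: all glutamate and chloride carriers, the 3 with the largest called difference without overlap in each other group, the 3 largest called stage changes in each direction per population, and every member called in opposite directions. Of those this rule picks, 2 are not reported here. Gene positions came from GENCODE M21 on GRCm38, where 89 of 89 members matched, and promoters from RefSeq, where 71 matched. Alternatives were a pseudocount of 0.1, median-of-ratios scaling, a mean FPKM of at least 1, no trend, only the compared groups, a threshold of 0.01, the replicate block and each library left out.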

Additional observations from a re-analysis of the deposited data

Results flagged for a closer look

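The difference between Ebf2-EGFP+ and Ebf2-EGFP- cells changed from E11.5 to E15.5, by the test of that change in the limma fit, in 40 of the 54 named members. Most of the rules that named these 54 used values of the same data, so their share is not that of the carriers. Of all 89 members, 56 changed. Of all listed genes, 32% changed towards Ebf2-EGFP+ and 27.7% towards Ebf2-EGFP- cells. The values are log2 changes of the difference, positive towards Ebf2-EGFP+ cells, and their causes were not tested.

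Among glutamate and chloride carriers the change was -4.61 for Slc17a6, -2.99 for Slc17a7, -1.60 for Slc1a2, 0.79 for Slc1a6, 0.78 for Slc12a2 and 1.25 for Slc12a4. Among sugar and monocarboxylate carriers it was 1.00 for Slc2a1, 1.33 for Slc2a3, 0.90 for Slc2a6, 2.60 for Slc16a1, 1.48 for Slc16a3 and 0.96 for Slc16a6. Among amino acid carriers it was -1.58 for Slc15a2, 1.32 for Slc16a10, 1.01 for Slc1a5, 1.77 for Slc38a4 and 2.51 for Slc6a15. Among carriers of other transmitters and choline it was 1.49 for Slc18a2 and 1.36 for Slc44a1.

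Among mitochondrial and zinc-family members it was 1.39 for Slc25a13, 1.31 for Slc25a15, -1.24 for Slc25a27, -2.70 for Slc30a10, 0.73 for Slc39a1 and 0.68 for Slc39a8. Among ion exchangers and phosphate carriers it was -1.40 for Slc8a2, 1.43 for Slc8a3, -0.98 for Slc4a10, 1.24 for Slc4a2, 0.90 for Slc4a4 and 1.73 for Slc20a2. In the remaining groups it was 1.47 for Slc10a4, 1.67 for Slc22a23, -1.19 for Slc27a2, 0.91 for Slc19a2, 1.55 for Slc29a1, 1.34 for Slc43a3, 2.54 for Slc35f1, 1.67 for Slc35f2 and 1.15 for Slc9a3r2.

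The call was lost for 4 of these with 1 library left out. For Slc15a2 it held only without Ebf2-EGFP+ replicate 1 or Ebf2-EGFP- replicate 2 of E11.5, and was -0.81 without Ebf2-EGFP+ replicate 2 of E11.5. For Slc1a5 it was lost without Ebf2-EGFP- replicate 1 (0.83) or Ebf2-EGFP+ replicate 2 (0.94) of E11.5, or Ebf2-EGFP- replicate 2 of E15.5 (0.66). For Slc25a27 it was lost without Ebf2-EGFP- replicate 1 (-0.75) or Ebf2-EGFP+ replicate 2 (-1.12) of E11.5, or Ebf2-EGFP+ replicate 1 of E15.5 (-1.07). For Slc39a1 it was lost without Ebf2-EGFP- replicate 1 (0.62), Ebf2-EGFP+ replicate 1 (0.76) or Ebf2-EGFP+ replicate 2 (0.70) of E11.5, or Ebf2-EGFP- replicate 2 of E15.5 (0.50). With a pseudocount of 0.1 the calls of Slc15a2, Slc1a5, Slc25a13 and Slc39a8 were lost (-1.94, 0.74, 0.94 and 0.53).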

How the results depend on the processing

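The counts of members called in each direction stayed within 1.5 times the reported count under the alternatives, except at the threshold of 0.01, where 15 members were higher at E15.5 and the difference changed towards Ebf2-EGFP- cells in 11. That threshold calls fewer genes by construction. With the replicate block, 30 members were higher and 49 lower at E11.5, 30 and 36 at E13.5, 32 and 23 at E15.5, and 45 and 21 changed in their difference. The block was not applied within a population, where replicate numbers of different stages do not pair. Beside the members whose blocked p is given above, the block changed no call of a named member between the populations at a stage. With 1 library left out, the counts ranged from 25 to 28 higher and 42 to 48 lower at E11.5, 20 to 29 and 30 to 36 at E13.5, and 18 to 26 and 15 to 22 at E15.5.

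No called difference of a named member changed sign under these alternatives. Differences that were not called did. Scaling gave 0.06 for Slc15a2 and 0.02 for Slc27a1 at E11.5, 0.17 for Slc17a6, 0.00 for Slc27a2, 0.07 for Slc29a1, 0.03 for Slc30a10 and 0.09 for Slc39a8 at E13.5, and 0.07 for Slc25a27 at E15.5. Leaving out 1 library gave at E11.5 -0.83 to 0.71 for Slc15a2 and -0.50 to 0.09 for Slc27a1. At E13.5 it gave -0.36 to 0.11 for Slc17a6, -0.03 to 0.23 for Slc25a27, -0.06 to 0.02 for Slc27a2, -0.15 to 0.06 for Slc39a8 and -0.05 to 0.39 for Slc4a10. At E15.5 it gave -0.19 to 0.33 for Slc16a1, -0.10 to 0.62 for Slc17a6, -0.05 to 0.13 for Slc20a1, -0.12 to 0.16 for Slc25a15, -0.28 to 0.05 for Slc25a27, -0.04 to 0.02 for Slc27a2, -0.05 to 0.47 for Slc29a1 and -0.13 to 0.13 for Slc44a1. The cause of these changes was not tested. Of 265 calls of named members and partner genes over the 6 comparisons, 45 were lost with some library left out. The alternatives for single genes within a population or in the change of the difference, for substrate groups, for Slc16a14 and for partner genes were chosen after seeing the data. Unknown depth of the single libraries, 2 libraries a group and a table limited to differential genes bound all counts.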
